A study of Homo sapiens with 6 samples.

Results

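Epithelial keratins and the basal marker TP63 were examined in an RNA-seq experiment on NCI-H660 (H660) cells, a human neuroendocrine prostate cancer line. The 9 genes were taken by symbol from the 28008 genes of the count table. They comprised 4 keratins of luminal or simple epithelium (KRT8, KRT18, KRT19 and KRT7), 4 keratins of basal epithelium (KRT5, KRT14, KRT15 and KRT17), and TP63, which encodes the basal transcription factor p63. In every library the cells held a vector, selected with puromycin, that makes a short hairpin RNA (shRNA) directed against MUC1 when tetracyclines are present. The 3 DOX-negative libraries came from cells given 0.1% DMSO as vehicle. The 3 DOX-positive libraries came from cells given 500 ng/ml doxycycline (DOX), which switches the shRNA on, for 7 days. The comparison asks whether silencing MUC1 in these cells moves the luminal or the basal keratins. A single shRNA was used, and no DOX-treated cells with a control shRNA were analysed here, so DOX itself and the loss of MUC1 cannot be told apart. The labels state only that cells were grown in triplicate, so p-values measure the spread between these libraries, which may be technical.

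Keratins are the intermediate filament proteins of epithelial cells, and each filament is built from pairs of a type I and a type II chain. KRT8 (type II) and KRT18 (type I) form the filaments of simple epithelia, including the luminal cells of the prostate, where KRT19 and KRT7 can accompany them. Basal cells of stratified and glandular epithelia instead express KRT5 (type II) with KRT14 (type I), together with KRT15, KRT17 and p63, which maintains the basal state. Neuroendocrine prostate cancers commonly lack basal markers and keep simple keratins.

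The likeness of related chains is visible in the coding sequence. The stretches that follow are 60 bases of exon at the end of the central rod domain, a conserved part of keratins, and are shown because reads over such stretches decide how well the counts of related type I keratins can be separated. They were read on the GRCh38 build with the GENCODE 29 gene models, from exon 6 of KRT18 (chr12:52952275-52952334, plus strand), exon 6 of KRT14 (chr17:41583240-41583299, minus strand) and exon 6 of KRT17 (chr17:41620664-41620723, minus strand). Capitals mark differences from KRT18 in the KRT14 line and differences from KRT14 in the KRT17 line.
KRT18: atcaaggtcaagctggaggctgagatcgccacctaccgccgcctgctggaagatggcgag
KRT14: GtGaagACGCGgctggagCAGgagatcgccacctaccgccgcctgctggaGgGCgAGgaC
KRT17: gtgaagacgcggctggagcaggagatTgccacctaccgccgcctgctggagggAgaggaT
KRT14 differed from KRT18 at 16 bases, whereas KRT17 differed from KRT14 at 3. KRT7 was well separated from its relatives, since 0.411% of the 50-base windows of its transcript also occurred in another keratin gene or keratin pseudogene. Windows were compared among keratin genes and pseudogenes only. Shared windows of this length made up 41.3% of the KRT8 transcript, 31.8% of KRT18, 23.8% of KRT14 and 17.4% of KRT17, mostly with pseudogenes. Of the KRT14 windows, 17.1% occurred in pseudogenes and 11.8% in other keratin genes, led by KRT16 (11.2%). How reads with several matching positions were counted is not given in the sources used here. The levels of KRT8, KRT18, KRT14 and KRT17 carry that uncertainty. RefSeq lists 52 pseudogenes of KRT8 and 68 of KRT18, but the count table held only 1 of each. These held 0.0120% as many counts as KRT8 and 0.0320% as many as KRT18. Reads at the other pseudogenes cannot be judged from these values. RefSeq also places the ends of KRT8 (chr12:52897191-52949860) and KRT18 (chr12:52948855-52952906) over each other, and KRT7-AS, an antisense RNA, lies within KRT7 (chr12:52233243-52255853).

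Total counts ranged from 47620696 to 74061121 per library. MUC1, the target of the shRNA, was at 88.2, 90.2 and 79.6 normalized CPM (counts over the library total, adjusted with TMM factors) in DOX-negative libraries and at 36.7, 37.2 and 29.9 in DOX-positive libraries, a log2 fold change of -1.32 (SE 0.096, edgeR quasi-likelihood test, Benjamini-Hochberg adjusted p = 0.00017). The neuroendocrine marker CHGA (chromogranin A) was at 21.8 to 35.2 TPM (a level per gene length, scaled to the same total in each library). The 10 neuroendocrine markers listed summed to 305 to 434 TPM without and 279 to 451 TPM with DOX. KLK3, which marks secretory luminal cells, had 0 counts in all 6 libraries. Other luminal genes were present, and the 12 listed summed to 74.9 to 96.2 TPM without and 66.3 to 102 TPM with DOX. DOX-negative replicate 3 stood apart, as it had the lowest total and SNORD3A, a small nucleolar RNA, took 34.5% of its TPM, against 25.7% to 27.1% for the leading gene (RN7SK) elsewhere. All 4 luminal keratins were lowest in that library, both in TPM and in normalized CPM, on which changes are given.

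Levels of the 9 genes were separated by several orders of magnitude (plot of TPM by gene and library). KRT8 had the highest mean, 283 TPM, which ranked 105 among the 25673 genes with TPM. KRT18 followed at 259 TPM with rank 122. KRT8 exceeded KRT18 in 5 of 6 libraries, and their ranges overlapped, so the order of this pair did not exceed the spread. KRT19, a type I simple keratin without a tail domain, averaged 28.6 TPM and KRT7, a type II keratin of ducts and glands, averaged 4.34 TPM. From KRT18 through KRT19, KRT7 and KRT15 down to the next gene, the TPM ranges of neighbors in the order did not overlap over the 6 libraries.

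The basal genes lay far lower. KRT15, a type I keratin of basal cells, was the most abundant of them at a mean of 0.466 TPM. KRT17 and TP63 came next, and their order differed between the groups. KRT17 averaged 0.0066 TPM without and 0.061 TPM with DOX, TP63 0.035 and 0.033 TPM, so TP63 was the higher in the 3 DOX-negative libraries and KRT17 in the 3 DOX-positive libraries. KRT14 had 1 count, in DOX-negative replicate 1, and KRT5 had 1 count, in DOX-negative replicate 2, with 0 counts in the other libraries. A count of 0 allows up to 3 counts, which corresponds to 0.0397 to 0.0630 normalized CPM depending on the library. The defining basal pair of KRT5 and KRT14 was thus at or under this limit in all libraries of both groups.

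**Figure D1:**
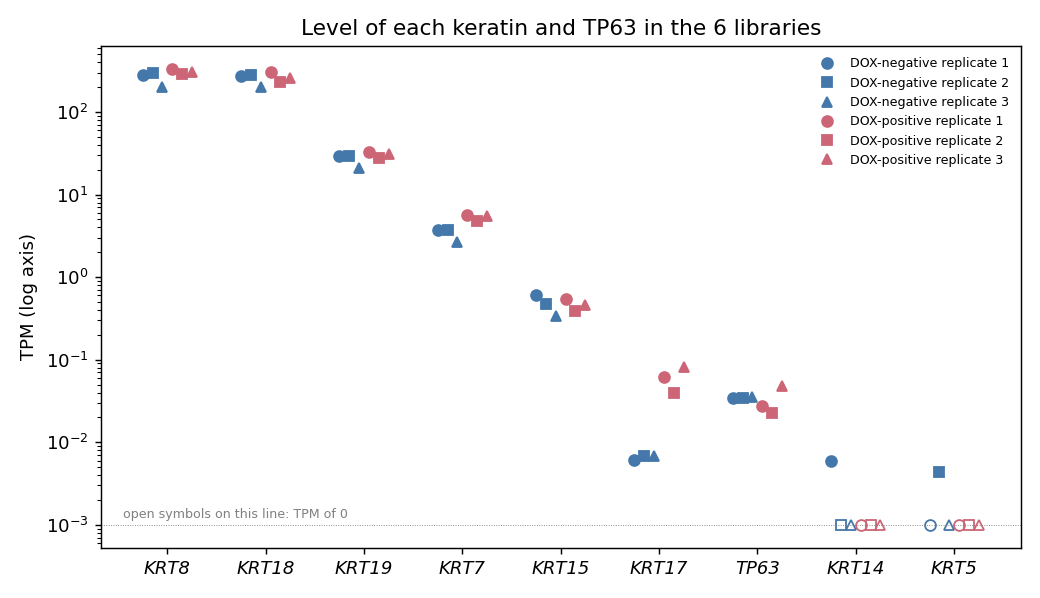
TPM (log axis) of the 9 genes in each of the 6 libraries, with DOX-negative libraries in blue, DOX-positive libraries in red, symbols for replicates, and open symbols for a TPM of 0. KRT8 and KRT18 lie near 283 and 259 TPM, KRT15 near 0.466 TPM, and KRT5 and KRT14 are at 0 in 5 of 6 libraries each.

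Summed over the 4 luminal keratins, the level was 593, 603 and 427 TPM in DOX-negative libraries and 678, 550 and 601 TPM in DOX-positive libraries. Summed over the 4 basal keratins, it was 0.616, 0.485 and 0.341 TPM against 0.599, 0.429 and 0.538 TPM. Both sums overlapped between groups. The luminal sum exceeded the basal sum 962-fold to 1252-fold in DOX-negative and 1117-fold to 1282-fold in DOX-positive libraries. On the log2 scale the ratio was 10.16 ± 0.22 (SD, n = 3) without and 10.20 ± 0.11 (SD, n = 3) with DOX, a difference of 0.039 that lay within the spread between libraries. KRT15 made up 97.7% to 98.0% of the basal sum in DOX-negative and 84.7% to 90.8% in DOX-positive libraries, so the ratio follows this gene. Without KRT15 the log2 ratio differed by -2.41 between groups, and the remaining basal sum then rested on 1 to 16 counts of KRT17 per library and on the single counts of KRT14 and KRT5.

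After the filter on low counts, 6 of the 9 genes were tested (KRT8, KRT18, KRT19, KRT7, KRT15 and TP63) and 1 was called at an adjusted p under 0.05, namely KRT7, which was higher with DOX. Over all 17026 tested genes, 4.87% were called in either direction, 2.91% higher and 1.96% lower. In these bulk libraries a change in the number of cells expressing a gene and a change in RNA per cell cannot be told apart.

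KRT7 was at 10.4, 9.84 and 9.03 normalized CPM in the DOX-negative libraries and at 13.1, 16.5 and 15.9 in the DOX-positive libraries, from 430 to 1171 counts per library. Every DOX-positive value lay above every DOX-negative value, and the same held in TPM (2.66 to 3.75 against 4.72 to 5.63). Over all tested genes, 14.8% were separated in this direction. The mean rose from 9.76 ± 0.69 (SD, n = 3) to 15.2 ± 1.8 normalized CPM (SD, n = 3). This was a 1.55-fold rise (0.63 in log2, SE 0.11, 95% interval 0.40 to 0.87, edgeR adjusted p = 0.010). The call was lost without DOX-negative replicate 2 (log2 fold change 0.64, adjusted p = 0.053), without DOX-negative replicate 3 (0.58, adjusted p = 0.082), and in the 3 limma fits on log2(TPM + pseudocount), while the fold change stayed between 0.53 and 0.73 over all 20 alternatives. KRT7-AS, which overlaps KRT7 on the opposite strand, was at 0.892 to 1.41 normalized CPM without and 1.15 to 1.36 with DOX (log2 fold change 0.08, SE 0.20, edgeR adjusted p = 0.86).

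KRT8, the type II partner of KRT18, was at 1084, 1055 and 932 normalized CPM without DOX and at 1067, 1370 and 1210 with DOX. The groups overlapped through DOX-positive replicate 1, which lay below DOX-negative replicate 1. The log2 fold change of 0.25 (SE 0.098, 95% interval 0.035 to 0.46) did not pass the adjusted threshold (edgeR adjusted p = 0.17), nor did it in any of the 20 alternatives. When single libraries were left out it was lowest at 0.16, on omitting DOX-positive replicate 2, and highest at 0.33, on omitting DOX-positive replicate 1.

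KRT18 was at 679, 645 and 614 normalized CPM without DOX and at 633, 727 and 667 with DOX. The values were interleaved, and the log2 fold change was 0.06 (SE 0.078, 95% interval -0.11 to 0.23, edgeR adjusted p = 0.69). This interval limits any change of KRT18 more tightly than for the other 5 genes tested.

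KRT19 was at 69.3, 65.6 and 60.2 normalized CPM without DOX and at 64.0, 82.6 and 75.6 with DOX. As for KRT8, only DOX-positive replicate 1 fell inside the DOX-negative range. The log2 fold change was 0.19 (SE 0.097, 95% interval -0.025 to 0.40, edgeR adjusted p = 0.30), with 0.10 on omitting DOX-positive replicate 2 and 0.28 on omitting DOX-positive replicate 1.

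Ratios within a library do not depend on library scaling (plot of KRT7, KRT8 and the ratio of KRT8 to KRT18 by library). KRT8 over KRT18 in TPM was 1.03, 1.06 and 0.983 without DOX and 1.09, 1.22 and 1.17 with DOX, so the 2 groups did not overlap. KRT7 amounted to 1.28% to 1.33% of the KRT8 level without DOX and to 1.66% to 1.80% with DOX, again without overlap. KRT19 over KRT18, both type I, did overlap, at 10.3% to 10.7% against 10.6% to 11.9%. These ratios were formed from genes whose values were already known and are given as a description, with no test. KRT8 and KRT18 together held 93.0% to 93.3% of the TPM of all 54 keratin genes listed in DOX-negative libraries and 92.0% to 92.7% in DOX-positive libraries.

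**Figure D2:**
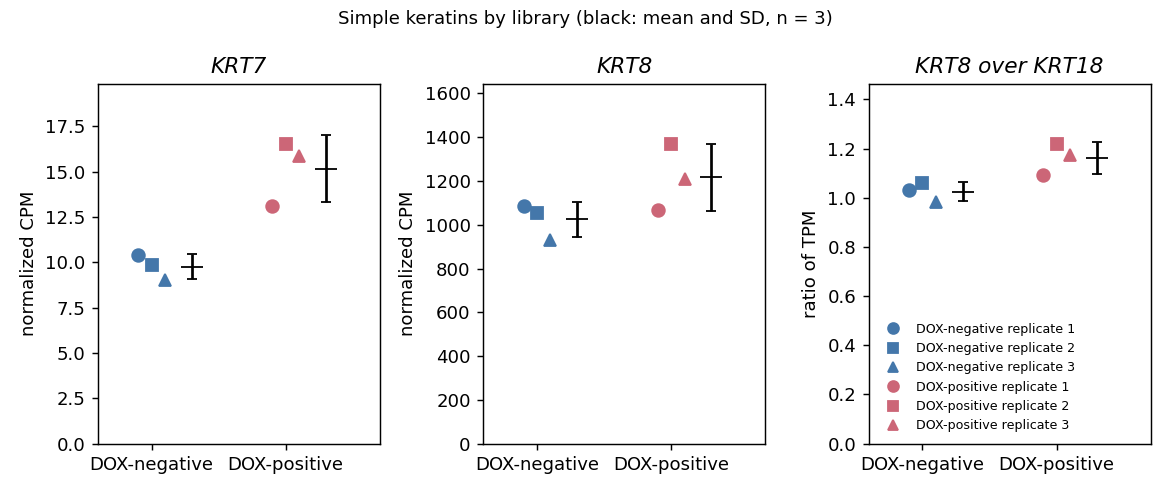
Normalized CPM of KRT7 and KRT8 and the ratio of KRT8 to KRT18 in TPM, by library (colors and symbols by group and replicate, black bars for mean and SD, n = 3, axes from 0). KRT7 and the KRT8 to KRT18 ratio (0.983 to 1.06 against 1.09 to 1.22) do not overlap between groups, whereas KRT8 itself does.

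KRT15 was at 1.83, 1.36 and 1.24 normalized CPM without DOX, from 59 to 117 counts, and at 1.36, 1.49 and 1.44 with DOX, from 82 to 106 counts. The DOX-positive values lay within the DOX-negative range. The log2 fold change was -0.06 (SE 0.18, 95% interval -0.46 to 0.34, edgeR adjusted p = 0.90), so a change of more than 0.46 on this scale in either direction was outside the interval. The sign turned without DOX-negative replicate 1 (0.13), and the value was -0.16 without DOX-negative replicate 3.

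TP63 (chr3:189596746-189897276) had 28, 25 and 26 counts without DOX and 22, 20 and 47 with DOX. DOX-positive replicate 3 was the highest and the other DOX-positive libraries the lowest in normalized CPM, at 0.637 against 0.291 and 0.364. The log2 fold change was -0.08 (SE 0.32, 95% interval -0.78 to 0.62, edgeR adjusted p = 0.92), and its value moved between -0.50 and 0.16 when single libraries were left out. The gene-level counts pool the TAp63 and ΔNp63 isoforms, which start at different promoters. At this depth the interval was wide, and it includes changes of TP63 in either direction.

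KRT17, a type I keratin of basal and stressed epithelium, did not pass the count filter. It had 1 count in each of the 3 DOX-negative libraries and 10, 7 and 16 counts in the DOX-positive libraries. The groups did not overlap, but all values were small, with a highest level of 0.0821 TPM. Among the tested genes, which exclude KRT17, 14.8% were separated in this direction in normalized CPM. The summed counts of 3 and 33 gave a depth-scaled ratio of 9.34 with a 95% interval of 2.93 to 47.6, which covers counting error only. An edgeR fit without a count filter called KRT17 (log2 fold change 3.08, SE 0.73, adjusted p = 0.014), with 4.99% of genes called, whereas DESeq2 gave it no adjusted p (log2 fold change 3.20) and limma on log2(TPM + 1) an adjusted p of 0.31. KRT16, whose stretch of rod sequence differs from KRT14 at 2 bases, had 1 count in all, and the 3 KRT17 pseudogenes in the table had 1 count together. RefSeq lists 8 pseudogenes of KRT17, and reads at those without counts here cannot be judged.

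Among all keratins, the genes called were of type II and were higher with DOX. Of 54 keratin genes, 11 passed the filter and 20 had 0 counts in every library. All 7 tested type II keratins had a positive fold change, 5 were called higher (against 2.91% of all tested genes) and 0 lower, and their median log2 fold change was 0.75, against 0.00034 over all tested genes. KRT4 passed the count filter only through the DOX-positive group, and without it 4 of 6 were called, with a median of 0.69. DESeq2 and limma-voom each called 4 type II keratins, DESeq2 giving no adjusted p for KRT4 and limma-voom not calling KRT81 (adjusted p = 0.067). Of the 4 tested type I keratins (KRT18, KRT19, KRT15 and KRT10), 3 had a positive fold change and the median was 0.13, with 0 called by edgeR (1 at an unadjusted p under 0.05), 0 by limma-voom and 1 by DESeq2. KRT10, the suprabasal keratin of skin, came closest at 0.36 (SE 0.11, edgeR adjusted p = 0.079), and it was the gene that DESeq2 called. KRT32 had the next highest TPM of the other type I keratins, with 3 counts in all. Whether the 2 types differed was not tested.

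KRT80, a type II keratin broadly found in epithelia, was at 2.89, 2.39 and 1.68 TPM without DOX and at 4.03, 3.51 and 5.06 TPM with DOX. It rose by 0.86 (log2, SE 0.16, edgeR adjusted p = 0.019), with no overlap between groups. In normalized CPM, 14.8% of all tested genes were separated in this direction. KRT80 lost the call without DOX-negative replicate 2 or 3 or DOX-positive replicate 2 (adjusted p up to 0.12). Its fold changes were 0.70 to 1.01 when single libraries were left out. The call was also lost with the replicate number as a block (0.85, adjusted p = 0.19). KRT4, a keratin of non-keratinizing mucosa, had 10, 4 and 9 counts against 32, 24 and 25 with a log2 fold change of 1.56 (SE 0.38, edgeR adjusted p = 0.036). Since 1 of 3 DOX-negative and 3 of 3 DOX-positive libraries reached the filter's cutoff of 0.160 CPM, KRT4 was tested only because it was high with DOX, and its call is no support for a difference. Its call was lost whichever of the 6 libraries was left out, with fold changes of 1.21 to 1.82. The hair keratins KRT86 and KRT81 rose by 0.78 (SE 0.14, edgeR adjusted p = 0.014) and 0.75 (SE 0.19, edgeR adjusted p = 0.043), and another hair keratin, KRT83, was at 0.37 (SE 0.27, edgeR adjusted p = 0.47). KRT86 lost its call without DOX-negative replicate 2 or 3 (adjusted p up to 0.090), and KRT81 in the 5 fits that left out a library other than DOX-positive replicate 1 (adjusted p up to 0.18).

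KRT81 (chr12:52285913-52291534) lies within the RefSeq bounds of KRT86 (chr12:52274645-52309163), and 38.4% of the KRT81 windows of 50 bases also occurred in KRT86. Their calls are therefore not independent of each other, since reads could be split between the 2 genes.

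The type II genes and KRT18 sit side by side on chromosome 12. Between KRT80 and KRT18 (chr12:52168996-52952906, GRCh38) RefSeq lists 47 genes, of which 27 are keratins, and 9 were tested, consisting of 8 keratins and KRT7-AS. Of these 9, 5 were called higher (against 2.91% of all tested genes), namely KRT80, KRT7, KRT86, KRT81 and KRT4. KRT4 passed the filter only through the DOX-positive group, and the calls of KRT86 and KRT81 are not independent. KRT8 and KRT18, at the far end and with far higher TPM than the rest, were not called. The type I genes KRT19, KRT15, KRT14 and KRT17 lie on chromosome 17, and of these KRT19 and KRT15 were tested and not called.

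**Figure D3:**
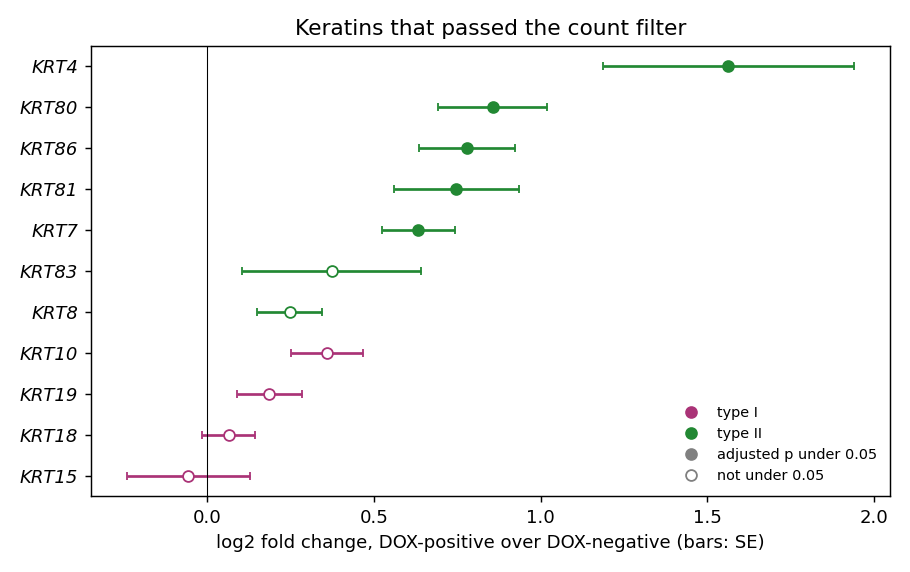
Log2 fold change (DOX-positive over DOX-negative, bars for SE) of the 11 keratins that passed the count filter, type I in purple and type II in green, with filled symbols for an edgeR adjusted p under 0.05. The 5 filled symbols, from 0.63 (KRT7) to 1.56 (KRT4, which passed the filter only through the DOX-positive group), are all type II.

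The wider basal program was examined through 18 genes that mark prostate basal cells or are linked to p63. Of these, 17 were tested, 6 were called higher (against 2.91% of all tested genes) and 0 lower, with a median log2 fold change of 0.30. The fold change was positive for 14 and negative for 3. In normalized CPM the groups did not overlap for 10 genes with DOX above (14.8% of all tested genes) and 1 with DOX below (13.3%). DESeq2 called 7, adding TP73, and limma-voom called 5, without NGFR (adjusted p = 0.0503). Of the tested genes that were not called, 3 passed the filter through 1 group only. The called genes included LAMB3 and LAMA3, which encode chains of a laminin that anchors basal cells to the basement membrane. LAMB3 rose by 1.49 (SE 0.17, edgeR adjusted p = 0.0024) and LAMA3 by 0.80 (SE 0.12, edgeR adjusted p = 0.0051). LAMB3 was at 2.24, 1.79 and 1.60 normalized CPM without DOX and at 4.19, 5.64 and 6.09 with DOX, so the groups did not overlap, and its highest level was 0.738 TPM. LAMB3 was called whichever library was left out, and LAMA3 was not called without DOX-negative replicate 3 (adjusted p = 0.057).

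ITGB4, the hemidesmosomal integrin chain that binds laminin, rose by 0.58 (SE 0.12, edgeR adjusted p = 0.018). NGFR, a surface marker of basal cells, rose by 0.71 (SE 0.17, edgeR adjusted p = 0.039). SFN (14-3-3σ), an epithelial cell cycle inhibitor and the most abundant gene of this list, rose by 0.38 (SE 0.088, edgeR adjusted p = 0.031). TP73, the p63 relative, averaged 18.4 TPM, far above the 0.0339 TPM of TP63, and its log2 fold change was 0.30 (SE 0.082, edgeR adjusted p = 0.057, and 0.038 with the replicate block). Without DOX-negative replicate 2 or 3, ITGB4, NGFR and SFN were not called (adjusted p up to 0.11, 0.17 and 0.16). The same held for NGFR and SFN without DOX-positive replicate 2 or 3, and for SFN without DOX-negative replicate 1. TP63 itself did not pass the test, and KRT5 and KRT14 had 1 count each.

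**Figure D4:**
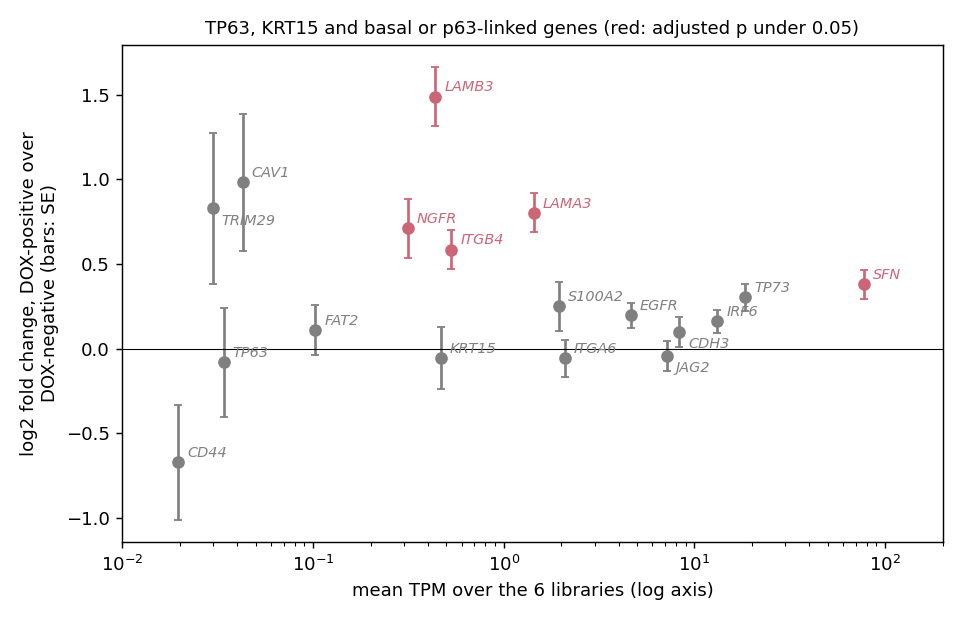
Log2 fold change (bars for SE) against mean TPM (log axis) for TP63, KRT15 and 16 of the 17 tested basal or p63-linked genes, in red for an edgeR adjusted p under 0.05. The 5 red genes lie between 0.38 and 1.49, while TP63 (-0.08) and KRT15 (-0.06) lie near 0.

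Genes that anchor keratin filaments at cell junctions were not called. Of 15 desmosome and plakin genes, 13 were tested and the median log2 fold change was 0.07. By edgeR, DESeq2 or limma-voom 0 were called, and 4 had an unadjusted edgeR p under 0.05. With 4.87% of all tested genes called by edgeR, 0 of 13 does not set this list apart. DSP (desmoplakin), which ties keratins to desmosomes, was at 1413, 1617 and 1390 normalized CPM without and 1492, 1215 and 1139 with DOX (log2 fold change -0.20, SE 0.10, edgeR adjusted p = 0.29). PERP, a desmosomal membrane protein and p63 target, was at 178, 178 and 184 against 201, 205 and 252 (log2 fold change 0.28, SE 0.089, edgeR adjusted p = 0.090).

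Of 13 intermediate filament genes other than keratins, 10 were tested and 2 were called, both higher (against 2.91% of all tested genes). VIM (vimentin), the filament of mesenchymal cells, rose by 0.35 (SE 0.078, edgeR adjusted p = 0.026) from 32.6, 35.2 and 35.7 to 45.4, 44.5 and 42.3 normalized CPM. NEFL, the neurofilament light chain, rose by 0.57 (SE 0.13, edgeR adjusted p = 0.033). LMNB2 and LMNB1, the nuclear lamins with the highest TPM of this group, had fold changes of -0.02 and -0.06 with edgeR adjusted p of 0.93 and 0.66. NEFL was called in no fit that left out a DOX-negative library, DOX-positive replicate 1 or DOX-positive replicate 3 (adjusted p up to 0.16), nor VIM in those that left out a DOX-negative library or DOX-positive replicate 1 (adjusted p up to 0.12).

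The other prostate luminal genes gave no call. Of 12 listed, 6 were tested, with a median log2 fold change of 0.05. By edgeR, DESeq2 or limma-voom 0 were called (1 at an unadjusted edgeR p under 0.05). With 4.87% of all tested genes called by edgeR, 0 of 6 does not set this list apart. CD24, a surface glycoprotein, and FOXA1, a pioneer factor of luminal cells, had the highest TPM, with fold changes of -0.11 (SE 0.080, edgeR adjusted p = 0.47) and 0.04 (SE 0.065, edgeR adjusted p = 0.76). All 14 transcription and splicing factors of epithelia were tested and 2 were called, both higher (against 2.91% of all tested genes). EHF and GRHL3 rose by 0.89 (SE 0.19, edgeR adjusted p = 0.027) and 0.50 (SE 0.10, edgeR adjusted p = 0.021). ELF3 was at 0.25 (edgeR adjusted p = 0.076) and ESRP1 at -0.03 (edgeR adjusted p = 0.88). Both calls were lost without DOX-negative replicate 2 or 3, and that of GRHL3 also without DOX-positive replicate 3 (adjusted p up to 0.13). All 8 epithelial junction genes were tested. By edgeR 0 were called (2 at an unadjusted p under 0.05), against 4.87% of all tested genes, which does not set this list apart. Limma-voom called 0 and DESeq2 called 1 (TJP1, named after its value was seen). The most abundant, CLDN7 and EPCAM, had fold changes of 0.21 (edgeR adjusted p = 0.23) and 0.00069 (edgeR adjusted p = 0.998).

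Markers of other cell types are given beside these results, and their part in them was not tested. Of 10 neuroendocrine markers, 10 were tested and 2 were called, both lower (against 1.96% of all tested genes). NCAM1 was at -0.50 (edgeR adjusted p = 0.014) and INSM1 at -0.45 (edgeR adjusted p = 0.039), whereas CHGA (-0.20, edgeR adjusted p = 0.19) did not pass. The summed level of the 10 markers was 305 to 434 TPM without and 279 to 451 TPM with DOX. Of 7 fibroblast markers, 3 were tested and 2 were called, both higher (against 2.91% of all tested genes). They were LUM (1.06, edgeR adjusted p = 0.030) and COL1A1 (0.60, edgeR adjusted p = 0.019). COL1A2 was at -0.71 (edgeR adjusted p = 0.20), and COL3A1 and DCN had 0 and 4 counts in all. The fibroblast sum was 2.41 to 3.48 TPM without and 2.46 to 3.65 TPM with DOX. Of 4 endothelial markers, 3 were tested and 2 were called, both higher (against 2.91% of all tested genes). They were VWF (0.97, edgeR adjusted p = 0.018) and CDH5 (0.94, edgeR adjusted p = 0.013). PECAM1 had 20 counts in all, and the sum of the 4 markers was 0.372 to 0.574 TPM against 0.742 to 0.897 TPM. Of 5 immune markers 1 was tested (CD14, 0.14, edgeR adjusted p = 0.70), and 0 were called or had an unadjusted p under 0.05 in edgeR, DESeq2 and limma-voom, LYZ had 15 counts in all and PTPRC had 1, and the sum was 0.402 to 0.624 TPM against 0.511 to 0.608 TPM. All 6 of these called markers lost the call without DOX-negative replicate 2 or 3, LUM also without DOX-positive replicate 3, and INSM1 without DOX-positive replicate 2 or 3. LUM was also not called by limma-voom (adjusted p = 0.055), nor INSM1 by edgeR with no scaling factor (adjusted p = 0.051).

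Across the 6 libraries, the genes whose log2 normalized CPM followed KRT8 most closely were ILDR1, CUTA, PNKD, MRPL37 and GGT1, with Pearson r from 0.995 to 0.999. With 6 points that share libraries and scaling such values are common, and 330 of the 14586 genes searched had an r over 0.95 with KRT8. KRT19 had an r of 0.98 with KRT8, KRT18 of 0.92 and KRT7 of 0.89, and KRT15 had an r of 0.38. The genes closest to KRT15 were RND1, FDXACB1, GPR75, EIF4E2 and PPAN, with r from 0.943 to 0.985, and 4 genes exceeded 0.95.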

How the data were processed

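RNA-seq was performed on 6 libraries of H660 cells carrying the tet-inducible MUC1 shRNA (3 per group), and the titles gave the group and replicate number of each. The labels name a stranded mRNA kit for library preparation from total RNA. The authors deposited raw read counts per gene symbol (28008 genes) and TPM values (25673 genes), a unit in which counts are corrected for gene length and given the same sum in each library. The submitters' processing notes name STAR, DESeq2 and the GRCh38/hg38 build. The aligner version, the annotation and the strand setting of the counting are not given in the sources used here. Each of the 6 columns of each table was matched to a library by name, 0 columns belonged to no sample and 0 entries named no gene.

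The quasi-likelihood test of edgeR 4.0.16 (under R 4.3.3) was run on the counts with filterByExpr, TMM factors, robust estimation and no covariate, two-sided, with Benjamini-Hochberg adjustment over all 17026 tested genes and a threshold of 0.05. The procedure was tested on simulated data. A positive fold change (log2) means higher with DOX. The common dispersion gave a biological coefficient of variation of 9.58%. An exact permutation test of a single gene with 3 against 3 libraries cannot go below p = 0.1 and was not used. Alternatives comprised other scaling, other filters, DESeq2 1.42.0, limma-voom and limma 3.58.1 on log2(TPM + 1) and log2(TPM + 0.1), a block for the replicate number, omission of each library in turn, and merging of pseudogene counts. Intervals of fold changes come from the edgeR SE and cover the spread between libraries, whereas the interval of the KRT17 count ratio and the 3-count limit cover counting error only. Exon sequences were read from GENCODE 29 on GRCh38, and gene positions from RefSeq GRCh38.p14, in which 91.6% of the symbols matched. No promoter or protein sequence is shown. Pairs of DOX-negative libraries differed by 17.9 to 39.2 in chi-square per degree of freedom. Pairs of DOX-positive libraries differed by 67.8 to 111, so no library was a duplicate.

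All 9 genes are named. From each further list, called genes with the largest changes (up to 4, or 2 for cell type markers) and the 2 with the highest TPM are named, as are the 5 genes most correlated with KRT8 and with KRT15 among those with a mean of at least 50 counts. KRT83, KRT16, KRT7-AS and the markers at or near 0 counts lie outside this rule and were added after their values were seen. Some genes and sequences that this rule covers are not reported here. The genes and lists were chosen with earlier results of these data known, so their counts are descriptions and not independent evidence.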

Additional observations from a re-analysis of the deposited data

How the results depend on the processing

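The number of genes called (829) rose to 1355 with DESeq2 and fell to 30 with log2(TPM + 1) and 35 with log2(TPM + 0.1) among genes with a mean TPM of at least 1. It was 0 with log2(TPM + 1) and no filter in limma, where 1248 genes had an unadjusted p under 0.05. Leaving out 1 library gave 58 to 1035 calls, of which the lowest count, 58, came without DOX-negative replicate 3. It was 127 without DOX-negative replicate 2, and omitting DOX-positive replicate 3 gave 375. These fits have fewer samples. Of the 9 genes, 2 were called without a count filter (KRT7 and KRT17), 0 in each of the 3 TPM fits, and 0 to 1 when 1 library was left out (0 without DOX-negative replicate 2 or 3). The cause of these differences was not tested. The log2 ratio of luminal to basal keratins moved from 0.039 to -2.41 without KRT15, which holds most of the basal sum, and lay between -0.086 and 0.10 when single libraries were left out. No alternative turned the direction of a called gene among those named. The replicate numbers did not pair the libraries (correlations of same-numbered deviations -0.54, 0.019 and -0.10), and with the replicate block 998 genes and 1 of the 9 (KRT7, adjusted p = 0.0010 in edgeR) were called. Among the genes named, the block ended the call of KRT80 (adjusted p = 0.19), added one of TP73 (0.038) and changed no other call. A fit on protein-coding genes only, chosen after seeing the data, called 755 genes and KRT7 (edgeR adjusted p = 0.011). TP63 and KRT17, with at most 47 counts in a library, are limited by depth.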
